A study of Mus musculus with 6 samples.

Results

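Stromal fibroblast genes were followed in NT3 tumors of mice, 10 in all: Pdgfra, Pdgfrb, Dcn, Lum, Fn1, Thy1, Fap, Postn, Dpt and Pi16. The genes were selected by symbol, and each of the 10 matched 1 of the 23358 entries of the gene count table. They were chosen knowing that fibroblast genes were high in tumor 36 of this series, so the level in tumor 36 is given as a description and not as a result of a test. The same tumor is part of both comparisons made here, and values of the 10 genes without it are given with the results.

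RNA of whole tumors was sequenced from 6 female mice, 3 Osx-Cre;NT3 and 3 FSP1-Cre;NT3. All carried NT3, a form of NF-κB inducing kinase (NIK) that lacks the domain bound by TRAF3. It lies with a GFP reporter behind a loxP-flanked stop in the ROSA26 locus, on C57Bl/6J, and is expressed where Cre removes the stop. Osx-Cre, a GFP-tagged Cre under the Sp7 (osterix) promoter, was kept off by doxycycline until weaning in mice of mixed C57Bl/6J and CD1 descent. FSP1-Cre, under the S100a4 promoter, was on FVB/n and is known to be active in fibroblasts of many organs and also in myeloid cells. Osx-Cre;NT3 tumors 13, 18 and 25 all grew on the trunk, with latencies of 150, 168 and 115 days. FSP1-Cre;NT3 tumors 27 and 36 were perineal, with latencies of 101 and 52 days, and tumor 29 was on the trunk with 72 days. Site, latency, background strain and doxycycline before weaning therefore ran along with the line. RNA quality did too, since the study gives a higher average RNA integrity for the FSP1-Cre;NT3 tumors. With only 1 trunk tumor in FSP1-Cre;NT3 the effects of line and site are poorly told apart. The mice received no treatment of the tumors, and tumors were named by mouse number.

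Fibroblasts build and remodel the connective tissue around epithelia and within tumors. They secrete collagens, proteoglycans that space collagen fibrils, and glycoproteins such as fibronectin to which cells attach. Platelet-derived growth factor (PDGF) receptors carry signals for their growth and migration, and PDGFRα is a widely used surface marker of fibroblasts, whereas PDGFRβ also marks pericytes. Dpt and Pi16 are associated with resting fibroblasts found in many organs, and Fap and Postn with activated fibroblasts of wounds and tumors. The genes are not exclusive to fibroblasts: Thy1 is also a T cell gene in mice, and Fn1 and Postn can be made by other cells. In whole tumors, fewer cells of a type and less RNA per cell cannot be told apart.

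The total counts were between 51824408 and 163297772 per tumor, and every count was even, which would follow if the 2 reads of a pair were each counted. Levels are given as CPM, the counts relative to library size, after correcting library sizes by TMM, edgeR's trimmed-mean factors. At these depths 3 counts correspond to at most 0.0579 CPM, and the lowest count of any of the 10 genes was 128, for Pi16 in tumor 13. The spread between tumors was thus far above counting error. Tumor 36 stood apart in markers of other cell types. Its 8 smooth muscle and myoepithelial markers summed to 3216 CPM against 305 to 592 CPM in the other tumors, and its 6 basal keratinocyte markers to 5741 CPM against 10090 to 14650 CPM. Defining basal keratinocyte markers were high in all 6 tumors, with a mean of 4671 CPM for Krt5.

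Per length of the gene model, in the RPKM that the authors deposited, Postn was the highest of the 10 genes and Fap the lowest. Postn had a mean of 359 ± 182 RPKM (SD, n = 6 tumors here and below) and ranked 154 among all entries. Dcn followed with 203 ± 125 RPKM at rank 253, and Lum with 110 ± 64.6 RPKM at rank 463. The middle of the order was held by surface and matrix genes, with Thy1 at 70.1 ± 25.7, Dpt at 63.1 ± 37.6 and Fn1 at 31.4 ± 19.6 RPKM. The receptors were lower, Pdgfrb with 10.9 ± 4.76 RPKM and Pdgfra with 6.40 ± 5.25 RPKM at rank 7469, and Pi16 lay between them with 9.52 ± 9.94 RPKM. Fap had 1.62 ± 0.665 RPKM and ranked 11710. The ranges over the tumors overlapped for every pair of neighbours in this order. Within a tumor the order was firmer for some pairs: Dcn was above Lum, Fn1 above Pdgfrb and Pdgfra above Fap in 6 of 6 tumors, whereas Pdgfrb was above Pi16 in 3 and Pi16 above Pdgfra in 3.

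**Figure D1:**
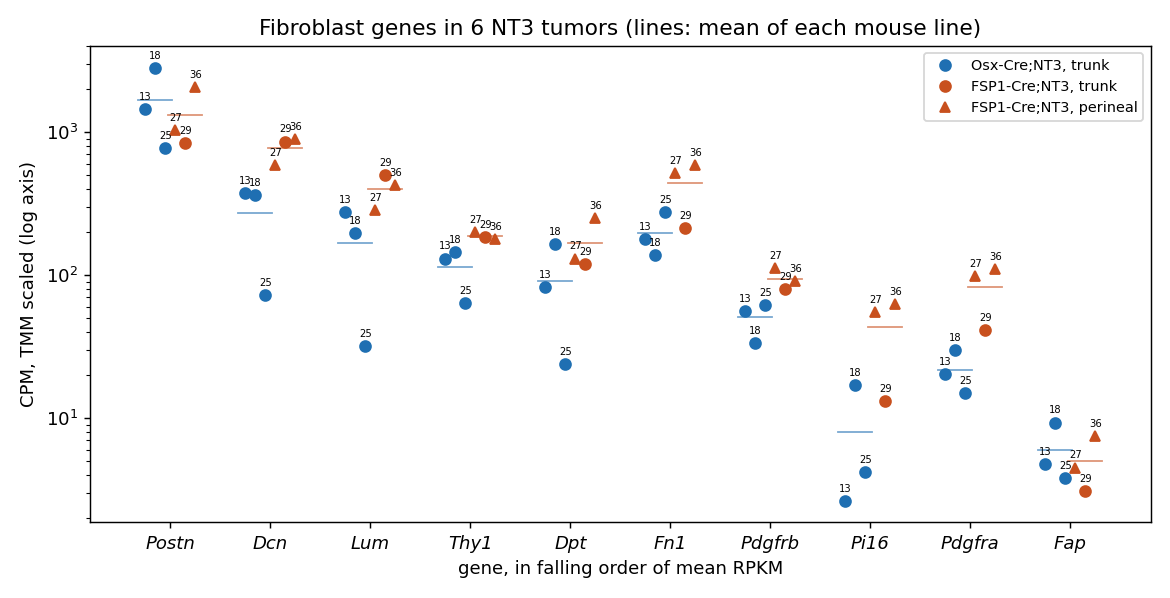
CPM (TMM scaled, log axis) of each of the 10 genes in each of the 6 tumors, with blue points for Osx-Cre;NT3, orange for FSP1-Cre;NT3, circles for trunk and triangles for perineal tumors, mouse numbers above the points and short lines at the mean of each line. Tumor 25 lies well below the rest for Dcn, Lum and Dpt, and both perineal tumors lie above all trunk tumors for Pdgfra, Pdgfrb, Fn1 and Pi16.

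The promoters of Pdgfra and Postn are shown because Pdgfra was the gene that DESeq2 called in both comparisons and Postn one whose groups overlapped in both. RefSeq promoter windows were found for 4 of the 10 genes (Pdgfra, Postn, Dpt and Pi16). The windows are the 250 bases before the start site on GRCm38.p6, both on the plus strand, chr5:75152001-75152250 for Pdgfra and chr3:54360857-54361106 for Postn, and they overlap no annotated exon. Capitals mark the letters TATAAA.
Pdgfra: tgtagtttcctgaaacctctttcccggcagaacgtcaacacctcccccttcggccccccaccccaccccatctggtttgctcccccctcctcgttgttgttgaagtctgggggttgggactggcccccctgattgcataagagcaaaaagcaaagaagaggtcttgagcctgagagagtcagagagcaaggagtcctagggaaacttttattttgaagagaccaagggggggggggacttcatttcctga
Postn: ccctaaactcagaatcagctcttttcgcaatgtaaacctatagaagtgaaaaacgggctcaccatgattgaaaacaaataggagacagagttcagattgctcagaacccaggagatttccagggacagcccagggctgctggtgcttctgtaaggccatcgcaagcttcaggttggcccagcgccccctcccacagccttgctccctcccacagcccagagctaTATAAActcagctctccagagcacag
TATAAA stood in the Postn window at -26 to -21 from the start site and in none of the other 3, where 12.4% of 32851 mouse promoter windows of this length hold it on either strand. CCAAT, held by 33.8% of all windows, was found only in that of Pi16 (-64 to -60). Unlike the windows shown, that of Pi16 overlaps annotated exon sequence of Pi16, and that of Dpt exon sequence of Dpt. GGGCGG (32.7% of all windows) and the κB motif, bound by NF-κB (7.25%), were found in none of the 4 windows. A match of letters is a description and not a site of binding.

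The PDGF receptor gene Pdgfra (chromosome 5 of mm10, 75152291 to 75198204) had 20.3, 30.0 and 14.9 CPM in Osx-Cre;NT3 tumors 13, 18 and 25, and 98.5, 41.4 and 110 CPM in FSP1-Cre;NT3 tumors 27, 29 and 36. All FSP1-Cre;NT3 tumors were above all Osx-Cre;NT3 tumors, and the perineal tumors 27 and 36 were above the trunk tumor 29 of the same line. The means were 21.7 ± 7.66 CPM and 83.2 ± 36.7 CPM (SD, n = 3 each), a log2 fold change of 1.94 (SE 0.44, 3.83-fold). With edgeR's quasi-likelihood test, the unadjusted p was 0.0032 and the p adjusted over all 16415 genes tested by Benjamini-Hochberg was 0.432. Between sites the log2 fold change was 1.96 (SE 0.38, adjusted p = 0.263 over 16971 genes). DESeq2 called Pdgfra in both comparisons, with adjusted p = 0.00384 between the lines and 0.00175 between the sites. Without tumor 36 the edgeR log2 fold change between the lines was 1.69 (SE 0.45), and DESeq2 no longer called the gene in either comparison. Between the lines DESeq2 also lost the call without tumor 13 (adjusted p = 0.0713).

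Pdgfrb (chromosome 18, 61045150 to 61085067), the receptor shared with pericytes, varied less. It had 56.3, 33.5 and 62.1 CPM in tumors 13, 18 and 25, and 112, 80.2 and 91.2 CPM in tumors 27, 29 and 36. The lines did not overlap, and neither did the sites. The log2 fold change between the lines was 0.90 (SE 0.28, unadjusted p = 0.0146, adjusted p = 0.458), and between the sites 0.80 (SE 0.33, adjusted p = 0.473). Without tumor 36 these were 0.92 (SE 0.32) and 0.95 (SE 0.44). The 7 pericyte markers summed to 498, 244 and 696 CPM in the Osx-Cre;NT3 tumors and to 505, 408 and 487 CPM in the FSP1-Cre;NT3 tumors, with 4 of the 7 higher and 3 lower in the latter. Tumor 18 was lowest for this sum as for Pdgfrb, and the sum is carried by abundant markers such as Rgs5. Only 1 of the 7 markers had all FSP1-Cre;NT3 tumors above all Osx-Cre;NT3 tumors, as did 9.03% of all genes. This was Notch3, with 9.69, 2.87 and 26.1 CPM in tumors 13, 18 and 25, and 39.2, 31.9 and 37.5 CPM in tumors 27, 29 and 36 (log2 fold change 1.49, adjusted p = 0.466). The 3 lower ones were Rgs5 (-0.39), Cspg4 (-0.09) and Higd1b (-0.48). The part of pericytes in the Pdgfrb counts was not tested. Within a tumor, Pdgfra was below Pdgfrb by 2.06 on the log2 CPM scale in tumor 25 and above it by 0.27 in tumor 36, the only tumor where it was the higher of the receptors in CPM. Of the 5 other PDGF genes, 3 were higher in FSP1-Cre;NT3 and 2 in Osx-Cre;NT3 tumors. The ligand genes Pdgfa and Pdgfb were those lower in FSP1-Cre;NT3 tumors, with log2 fold changes of -0.57 (unadjusted p = 0.031, adjusted p = 0.458) and -0.59 (adjusted p = 0.566). Pdgfc, a ligand of PDGFRα, had 14.7 CPM on average in the Osx-Cre;NT3 line against 26.0 CPM in the FSP1-Cre;NT3 line (log2 fold change 0.82, adjusted p = 0.458).

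Dcn and Lum encode decorin and lumican, small leucine-rich proteoglycans that bind collagen fibrils. They are neighbours on chromosome 10 (Dcn 97479500 to 97518162 and Lum 97565501 to 97572703), 47.3 kb apart with 0 entries between them. Dcn had 377, 364 and 72.6 CPM in tumors 13, 18 and 25, and 587, 859 and 894 CPM in tumors 27, 29 and 36. Lum had 278, 196 and 32.2 CPM in tumors 13, 18 and 25, and 284, 499 and 424 CPM in tumors 27, 29 and 36. Both genes were lowest in tumor 25, and for both the lines did not overlap, although for Lum tumor 27 was only just above tumor 13. The trunk tumor 29 was as high as the perineal ones, so the sites overlapped.

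Between the lines the log2 fold change was 1.52 for Dcn (SE 0.59, unadjusted p = 0.0375, adjusted p = 0.458) and 1.25 for Lum (SE 0.70, adjusted p = 0.486), and neither passed the threshold. Tumor 25 carried much of the size of these differences and of their spread. Without it they were 1.02 for Dcn (SE 0.24, adjusted p = 0.0852) and 0.72 for Lum (SE 0.30, adjusted p = 0.208). DESeq2 without tumor 25 called Dcn (adjusted p = 0.00101) and not Lum (adjusted p = 0.101), among 3650 of all genes. Without tumor 36 the edgeR log2 fold changes between the lines were 1.41 (SE 0.67) and 1.21 (SE 0.80), and those between the sites 0.49 (SE 1.01) and 0.18 (SE 1.12). Between the sites the log2 fold changes of 0.82 and 0.49 turned to -0.22 and -0.50 once the line was in the fit. The log2 difference of Dcn over Lum in CPM stayed between 0.44 and 1.17 in the 6 tumors while Lum itself varied 15.5-fold and Dcn 12.3-fold. Of the 12 other small leucine-rich proteoglycan genes, 9 had higher and 3 lower levels in FSP1-Cre;NT3 tumors. At an unadjusted p under 0.05, 5 were higher, where 7.31% of all genes were. Without tumor 36, 9 were higher, 3 of them at such a p. Bgn (biglycan), the most abundant, had a mean of 475 CPM in Osx-Cre;NT3 against 844 CPM in FSP1-Cre;NT3 tumors (log2 fold change 0.83, SE 0.20, edgeR adjusted p = 0.441, DESeq2 adjusted p = 0.00427). Epyc (epiphycan), listed at 0 in tumor 13, had at most 0.247 CPM in the other Osx-Cre;NT3 tumors and 14.4, 0.308 and 3.06 CPM in tumors 27, 29 and 36. Kera, on the same stretch of chromosome 10 as Lum, had means of 1.66 and 11.7 CPM (log2 fold change 2.83, adjusted p = 0.458).

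Fn1 and Postn encode fibronectin and periostin, secreted glycoproteins that link cells to the matrix. Fn1 (chromosome 1, 71585523 to 71653171) had 179, 139 and 277 CPM in tumors 13, 18 and 25, and 514, 215 and 590 CPM in tumors 27, 29 and 36. Its highest values were the perineal tumors, and tumor 29 was below tumor 25, so that sites were separated and lines were not. The log2 fold change was 1.44 between the sites (SE 0.30, unadjusted p = 0.00191, adjusted p = 0.263) and 1.15 between the lines (SE 0.44, adjusted p = 0.458). With both terms in the edgeR fit it was 1.36 for the site (SE 0.51) and 0.11 for the line (SE 0.45), each at an adjusted p of 1. DESeq2 called Fn1 between the sites (adjusted p = 0.00324) and not between the lines (adjusted p = 0.192). Without tumor 36, the edgeR log2 fold change between the sites was 1.34 (SE 0.40), and DESeq2 did not call it.

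Postn (chromosome 3, 54361107 to 54391041) had 1442, 2825 and 773 CPM in tumors 13, 18 and 25, and 1033, 843 and 2064 CPM in tumors 27, 29 and 36. Tumors 18 and 36, from different lines and sites, were highest, and the groups overlapped. The log2 fold change was -0.36 between the lines (SE 0.55, adjusted p = 0.8) and 0.07 between the sites (SE 0.60, adjusted p = 0.974), which were -0.84 (SE 0.55) and -0.51 (SE 0.78) without tumor 36. Postn exceeded Fn1 by 4.34 on the log2 CPM scale in tumor 18 and by 1.00 in tumor 27. Of the 15 other matrix glycoprotein genes, 12 had higher levels in FSP1-Cre;NT3 tumors, 4 at an unadjusted p under 0.05, where 7.31% of all genes were. The other 3 were lower, 1 of them at such a p, Thbs2 (log2 fold change -0.94, edgeR adjusted p = 0.458). Without tumor 36, 11 were higher and 4 lower, 4 and 1 of them at an unadjusted p under 0.05. Tnxb (tenascin X) had 12.2, 7.51 and 20.3 CPM in tumors 13, 18 and 25, and 45.6, 34.5 and 81.4 CPM in tumors 27, 29 and 36 (log2 fold change between the lines 2.01, SE 0.47, edgeR adjusted p = 0.432, DESeq2 adjusted p = 0.00506), whereas Sparc, the most abundant of the others at a mean of 1824 CPM, had a log2 fold change of 0.60 (adjusted p = 0.458). Among the 8 genes of integrins that bind fibronectin, 5 were higher and 3 lower, and Itgb1 had a log2 fold change of -0.26 between the lines (adjusted p = 0.608).

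Thy1 (chromosome 9, 44043384 to 44048579) encodes a surface glycoprotein of fibroblasts, and in mice also of T cells. It had 131, 145 and 63.4 CPM in tumors 13, 18 and 25, and 201, 186 and 179 CPM in tumors 27, 29 and 36. The FSP1-Cre;NT3 tumors lay close together above all Osx-Cre;NT3 tumors, with 189 ± 11.5 CPM against 113 ± 43.7 CPM (SD, n = 3 each). The log2 fold change was 0.74 (SE 0.32, unadjusted p = 0.0543, adjusted p = 0.458), 0.40 without tumor 25 (SE 0.15, adjusted p = 0.174) and 0.77 without tumor 36 (SE 0.37). The 7 T cell markers summed to 38.4 CPM in tumor 25, the lowest for both, but were highest at 169 CPM in tumor 18, and only 2 of these 7 were higher on average in the FSP1-Cre;NT3 line. Their part in the Thy1 counts was not tested.

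Fap (chromosome 2, 62500945 to 62574021) encodes fibroblast activation protein, a surface serine protease of the dipeptidyl peptidase family. The entry of the microRNA Mir684-1 lies within it. Fap had 4.76, 9.31 and 3.80 CPM in tumors 13, 18 and 25, and 4.51, 3.08 and 7.47 CPM in tumors 27, 29 and 36. As for Postn, tumors 18 and 36 were highest and the groups overlapped. The log2 fold change was -0.25 between the lines (SE 0.50, adjusted p = 0.848) and 0.19 between the sites (SE 0.52, adjusted p = 0.911), which were -0.65 (SE 0.49) and -0.22 (SE 0.68) without tumor 36. Of the 11 other genes listed for activated fibroblasts, 6 were higher in FSP1-Cre;NT3 and 5 in Osx-Cre;NT3 tumors, and the median of their log2 fold changes was 0.17. Between the sites 7 were higher and 4 lower in perineal tumors. DESeq2 called 1, Wnt5a (log2 fold change 1.16, edgeR adjusted p = 0.263, DESeq2 adjusted p = 1.58e-05), where it called 3.56% of all genes. Acta2, the smooth muscle actin gene used as a marker of myofibroblasts, reached 498 CPM in tumor 36, where the smooth muscle markers were also high. Its mean was 74.5 CPM in the Osx-Cre;NT3 line and 209.9 CPM in the FSP1-Cre;NT3 line (adjusted p = 0.481). The higher mean came from tumor 36, since tumors 27 and 29 had 71.6 and 60.3 CPM, within the Osx-Cre;NT3 values of 59.2 to 86.3 CPM. Col12a1 had a log2 fold change of 0.17 (adjusted p = 0.867). In the dipeptidyl peptidase family, 4 of 5 other members had a higher level in the FSP1-Cre;NT3 line, and Dpp8, the most abundant, had 0.19 (adjusted p = 0.784). Dpp6 was higher at 1.54 (edgeR unadjusted p = 0.0205) and Dpp10 was the lower one at -1.24 (edgeR unadjusted p = 0.0438), both with an adjusted p of 0.458.

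Dpt and Pi16 encode dermatopontin, a matrix protein that binds decorin, and peptidase inhibitor 16. Dpt (chromosome 1, 164796732 to 164824266) had 83.0, 166 and 23.7 CPM in tumors 13, 18 and 25, and 131, 120 and 249 CPM in tumors 27, 29 and 36. Pi16 (chromosome 17, 29318882 to 29328902) had 2.65, 17.0 and 4.20 CPM in tumors 13, 18 and 25, and 55.3, 13.2 and 62.5 CPM in tumors 27, 29 and 36. Dpt was again lowest in tumor 25 and its lines overlapped at tumor 18. Pi16 was the most variable of the 10 genes, 23.6-fold from lowest to highest, and its trunk tumor 29 was below tumor 18 while both perineal tumors were above 55 CPM.

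Pi16 had a log2 fold change of 2.66 between the sites (SE 0.68, 6.31-fold, unadjusted p = 0.0057, adjusted p = 0.287) and 2.45 between the lines (SE 0.86, adjusted p = 0.458). DESeq2 called it between the sites (adjusted p = 0.0114) and not between the lines (adjusted p = 0.0574), and without tumor 36, where the edgeR log2 fold change between the sites was 2.57 (SE 0.84), in neither. Dpt had log2 fold changes of 0.88 between the lines (SE 0.66, adjusted p = 0.582) and 0.95 between the sites (SE 0.65, adjusted p = 0.601), which were 0.47 (SE 0.71) and 0.41 (SE 0.84) without tumor 36. Dpt exceeded Pi16 by 4.96 on the log2 CPM scale in tumor 13 and by 1.24 in tumor 27, and the log2 difference of Fap over Dpt was -3.63 ± 0.86 in Osx-Cre;NT3 against -5.06 ± 0.22 in FSP1-Cre;NT3 tumors (SD, n = 3 each). Of the 10 other genes listed as universal fibroblast genes, 9 had higher levels in FSP1-Cre;NT3 tumors (8 without tumor 36). At an unadjusted p under 0.05, 5 were higher (1 without tumor 36), where 7.31% of all genes were. Clec3b (tetranectin) had its lowest value, 0.310 CPM, in tumor 25 and its highest, 41.1 CPM, in tumor 36 (log2 fold change between the sites 3.75, edgeR adjusted p = 0.316, DESeq2 adjusted p = 0.0168), and Ly6a (Sca-1), the most abundant, had 0.58 (adjusted p = 0.601).

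**Figure D2:**
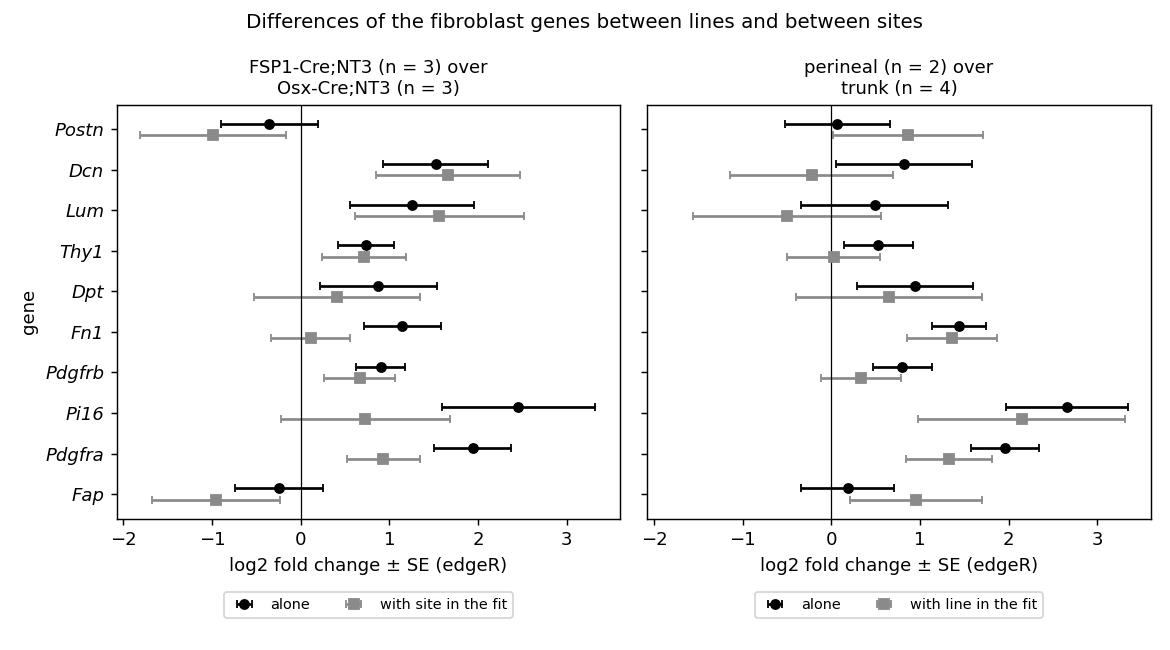
log2 fold change with its standard error (edgeR) of each of the 10 genes for the FSP1-Cre;NT3 line over the Osx-Cre;NT3 line, left, and perineal over trunk tumors, right, each from a fit with that term alone (black circles) and with the other term added (grey squares). Adding the site takes Fn1 from 1.15 to 0.11 and Pdgfra from 1.94 to 0.93 between the lines, and adding the line takes Dcn and Lum below 0 between the sites.

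Of the 10 genes, 8 had a higher level in FSP1-Cre;NT3 tumors and 10 were higher in perineal tumors, but none passed the edgeR threshold. The median log2 fold change was 1.02 between the lines and 0.81 between the sites, beside 0.015 and -0.020 over all genes tested. At an adjusted p under 0.05, edgeR called 0 of the 10 between the lines and 0 between the sites, as it called 0% of all genes in either comparison. At an unadjusted p under 0.05, 5 of the 10 were higher in FSP1-Cre;NT3 tumors, where 7.31% of all genes were, and 4 were higher in perineal tumors, where 8.88% were. Tumor 36, which guided the choice of the genes, is in both of these groups, so an excess over all genes was partly built in and is not a test. The 5 between the lines became 2 without tumor 36, 3 without tumor 13 or 27 and 0 with the site in the fit, and the 4 between the sites became 3 without tumor 36 and 2 with the line in the fit. Without tumor 36 the median log2 fold changes were 0.90 and 0.55, and 8 of the 10 genes were higher in each comparison. All 3 FSP1-Cre;NT3 tumors were above all 3 Osx-Cre;NT3 tumors for 5 of the 10 (Pdgfra, Pdgfrb, Dcn, Lum and Thy1), as for 9.03% of all genes. Both perineal tumors were above all 4 trunk tumors for 4 (Pdgfra, Pdgfrb, Fn1 and Pi16), as for 9.98% of all genes. DESeq2 called 1 of the 10 between the lines, Pdgfra, where it called 2.56% of all genes, and 3 between the sites, Pdgfra, Fn1 and Pi16, where it called 3.56%.

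With site and line in 1 fit, the genes divided. The site term was the larger for Pdgfra (1.33 against 0.93 for the line), Fn1 (1.36 against 0.11) and Pi16 (2.15 against 0.73), and the line term for Dcn (1.66 against -0.22), Lum (1.56 against -0.50), Thy1 (0.71 against 0.03) and Pdgfrb (0.66 against 0.34). Dpt had 0.65 for the site and 0.41 for the line, and Postn and Fap had terms of opposite sign, 0.87 and 0.95 for the site and -0.99 and -0.95 for the line. Every adjusted p of the 10 genes in this edgeR fit was 1, and the standard errors ran from 0.40 to 1.17, so the division is a description of these tumors. Among the trunk tumors alone, tumor 29 was above all 3 Osx-Cre;NT3 tumors for Dcn, Lum, Thy1, Pdgfra and Pdgfrb. These are the genes whose lines did not overlap, so this follows from that separation and is not a further result. The share of all genes highest in tumor 29 among the trunk tumors was not counted.

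The tumors differed in how many of the genes were high. Tumor 36 was the highest for 5 of the 10 genes, a description since it guided their choice, where 24.8% of all genes were highest in it. All 10 genes were above their own mean in tumor 36, 8 in tumor 27 and 6 in tumor 29, against 2, 5 and 1 in tumors 13, 18 and 25. Tumor 25 was the lowest for 6 (Pdgfra, Dcn, Lum, Thy1, Postn and Dpt), where 18.7% of all genes were lowest in it. Centred on each gene's mean log2 CPM, the median of the 10 genes was -1.29 in tumor 25, -0.19 in tumor 13 and -0.05 in tumor 18, and 0.13, 0.52 and 1.03 in tumors 29, 27 and 36. In tumor 25 the genes spread from -2.75 for Lum to 0.00 for Fn1, so matrix proteoglycans and fibronectin did not go together there. Tumor 25 did not have low collagen to the same degree, with 6989 CPM summed over 10 collagen genes against 8053 and 7553 CPM in tumors 13 and 18.

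**Figure D3:**
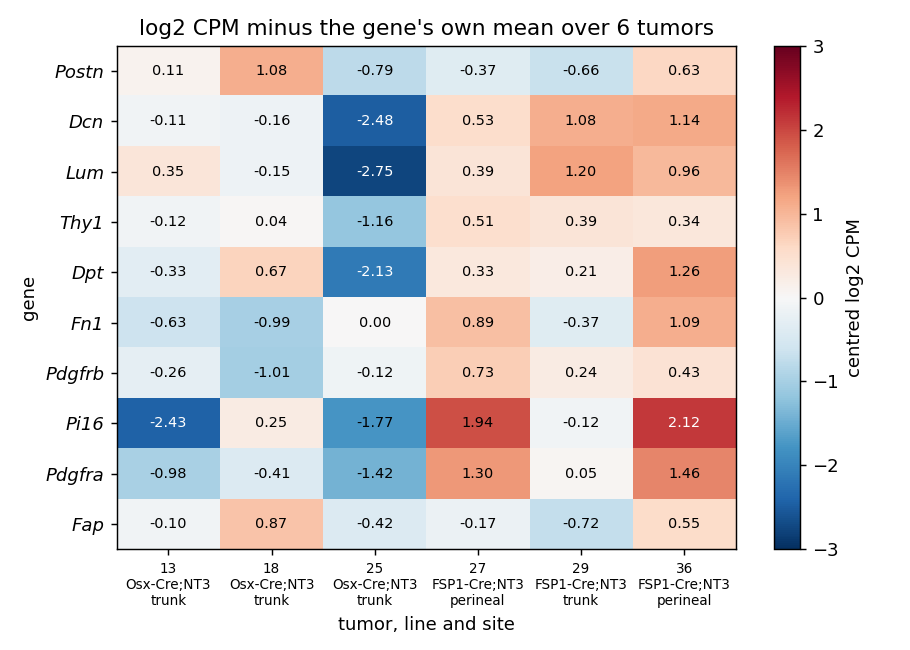
Centred log2 CPM (each gene's value minus its mean over the 6 tumors, red above and blue below the mean) of the 10 genes, rows in falling order of mean RPKM, in the 6 tumors, columns labelled by mouse number, line and site. Tumor 25 holds the lowest values for Lum (-2.75) and Dcn (-2.48), Pi16 ranges from -2.43 in tumor 13 to 2.12 in tumor 36, and every gene is above 0 in tumor 36.

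Other stromal genes were set beside the 10. The 10 fibrillar and fibril-associated collagen genes all had higher levels in FSP1-Cre;NT3 tumors, as did 8385 of all 16415 genes tested. With edgeR, 9 of them were higher at an unadjusted p under 0.05, where 7.31% of all genes were, and 0 at an adjusted one. DESeq2 called 9, where it called 2.56% of all genes. Without tumor 36 the edgeR counts were again 10, 9 and 0. The summed collagens did not overlap between the lines, with 6989 to 8053 CPM in Osx-Cre;NT3 against 14770 to 17540 CPM in FSP1-Cre;NT3 tumors, and the trunk tumor 29 was the highest. Col3a1 and Col1a2, the most abundant, had log2 fold changes between the lines of 1.01 and 0.97 (edgeR adjusted p = 0.458 and 0.444). Col6a3 had 1.19 (SE 0.20, edgeR adjusted p = 0.412, DESeq2 adjusted p = 3.19e-06).

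Of 11 genes listed for inflammatory fibroblasts, 10 were higher in FSP1-Cre;NT3 and 10 in perineal tumors. Of the latter, 7 were at an unadjusted p under 0.05, where 8.88% of all genes were higher in perineal tumors. Without tumor 36 the counts of the list were 9, 10 and 6. C3, the central complement component, had 102, 106 and 61.4 CPM in tumors 13, 18 and 25, and 297, 130 and 452 CPM in tumors 27, 29 and 36 (log2 fold change between the sites 1.90, edgeR adjusted p = 0.263, DESeq2 adjusted p = 0.000239). Saa3, an acute-phase gene, had a log2 fold change of 3.56 between the sites (edgeR adjusted p = 0.306, DESeq2 adjusted p = 0.0115). Of 11 mesenchymal transcription factor genes tested, 9 had a higher level in FSP1-Cre;NT3 tumors. Prrx1, the most abundant, had a log2 fold change between the lines of 0.77 (adjusted p = 0.458), and Tbx18 was among the lower ones with -1.73 (edgeR adjusted p = 0.412, DESeq2 adjusted p = 8.33e-05). S100a4, whose promoter drives FSP1-Cre, had 149, 252 and 32.7 CPM in tumors 13, 18 and 25, and 111, 98.9 and 181 CPM in tumors 27, 29 and 36, with no separation of the lines. Sp7 had at most 0.282 CPM in any tumor and was too low to test.

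Markers of other cell types moved with some of the 10 genes. The 6 adipocyte markers were all higher in both perineal tumors than in every trunk tumor, summing to 55.7 CPM in tumor 27 and 171 CPM in tumor 36 against 3.02 to 17.0 CPM, the same separation as for Pdgfra, Pdgfrb, Fn1 and Pi16. Of all genes tested, 9.98% separated the sites in this way. Fabp4 had a log2 fold change between the sites of 3.84 (edgeR adjusted p = 0.263, DESeq2 adjusted p = 0.000583). The 7 endothelial markers summed to 139 to 289 CPM in Osx-Cre;NT3 against 317 to 444 CPM in FSP1-Cre;NT3 tumors, and 6 of the 7 were higher in the latter. Of the 7 macrophage markers, 2 were higher and 5 lower, and Mrc1 was the highest in log2 fold change between the lines, at 2.38 (edgeR adjusted p = 0.458, DESeq2 adjusted p = 0.0138). The 6 skeletal muscle markers summed to 19.5 to 109 CPM and the 5 Schwann cell markers to 81.5 to 149 CPM. Basal keratinocyte markers were lower in FSP1-Cre;NT3 tumors for 6 of 6 genes, 0 at an unadjusted p under 0.05, and for 3 of 6 without tumor 36. The 6 simple epithelium markers summed to 4720 CPM in tumor 36 and to 664 to 1274 CPM in the others. Of the 4 mesothelial markers Upk3b, Wt1 and Lrrn4 were at 0 in at least 1 tumor, and Msln was lower in FSP1-Cre;NT3 tumors (log2 fold change -2.05, edgeR adjusted p = 0.458, DESeq2 adjusted p = 0.0196). The part of these cell types in the values of the 10 genes was not tested.

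**Figure D4:**
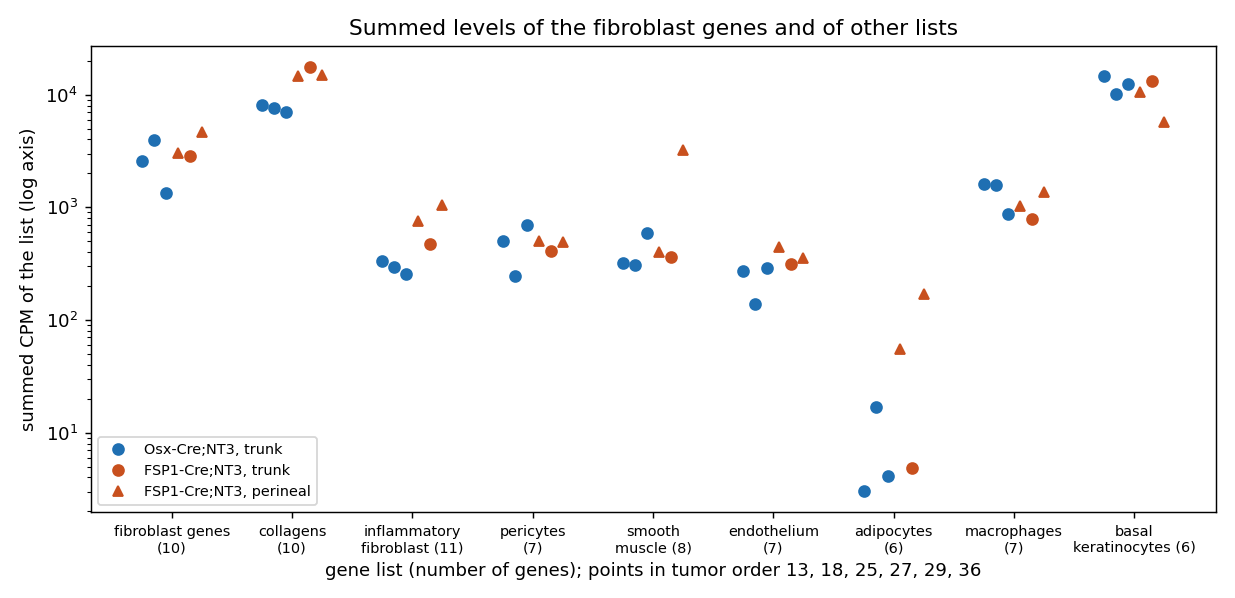
Summed CPM (log axis) of the 10 fibroblast genes, of collagen and inflammatory fibroblast genes and of marker lists of other cell types in the 6 tumors, drawn in the order 13, 18, 25, 27, 29 and 36 with colour for the line and shape for the site. The 10 genes sum to 1327 CPM in tumor 25 and 4670 CPM in tumor 36 and overlap between the lines. This overlap rests on Postn, which makes up 2825 of the 3925 CPM in tumor 18 and 843 of the 2860 CPM in tumor 29. Collagens do not overlap, and adipocyte markers are highest in the perineal tumors.

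The genes outside the 10 whose pattern over the 6 tumors was nearest to the median of the 10 were Nsg1, Fcgrt, Ly6c1, Chst10, Gng7, E130304F04Rik, Tex14, Ptx3, Clec14a and Ccdc109b. Their root mean square difference from it ran from 0.0709 (log2) for Nsg1 to 0.196 for Ccdc109b, and 786 of 16405 genes compared were within 0.5. The 10 genes themselves followed it less closely, with 0.310 for Thy1, 0.474 for Dpt and 0.511 (Pdgfra) to 1.20 (Pi16) for the others. The median is thus not the pattern of each of the 10. Fcgrt, the neonatal Fc receptor gene and the most abundant of them, had 34.9, 45.5 and 17.8 CPM in tumors 13, 18 and 25, and 55.8, 40.4 and 84.2 CPM in tumors 27, 29 and 36. None was in a list used here. With 6 tumors such a ranking is loose, and without tumor 36 only 3 of the 10 names stayed.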

How the data were processed

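Tumor RNA was sequenced on an Illumina HiSeq. Per the study's methods, reads were trimmed, aligned to mm10 with HISAT2 and counted with featureCounts, whereas the submitters' processing notes name TopHat2 2.0.6 and HTSeq; which made the table is not stated, nor are the annotation and strandedness. The authors deposited raw counts per gene entry, 1 column per tumor, and RPKM values scaled to gene model length and library size. The RPKM were used to order genes of different length. Overlapping entries could share reads, and 43 symbols were repeated, none among the 10 genes.

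The deposited counts went into edgeR 4.0.16 under R 4.3.3 (filterByExpr, TMM, glmQLFit, glmQLFTest), fitted over all genes for 3 FSP1-Cre;NT3 against 3 Osx-Cre;NT3 tumors and 2 perineal against 4 trunk tumors, with Benjamini-Hochberg adjustment and a threshold of 0.05. DESeq2 1.42.0 was an alternative. All tests are two-sided. Both tools were tested on simulated data. Log2 CPM used a prior count of 2. Each tumor came from a different mouse. The 10 genes and the lists were chosen with earlier results of these data known. Of each list, the 2 genes with the highest mean CPM and the 2 with the largest log2 fold change between the sites could be named, with any past the threshold. Further genes, such as Pdgfa, Pdgfb and Pdgfc, were named after their values were seen. Alternatives were other scalings and filters, the other factor as covariate, subsets of the tumors and each tumor left out.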

Additional observations from a re-analysis of the deposited data

Results flagged for a closer look

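Values of the 10 genes on the log2 CPM scale were searched for a tumor that lay apart, over all 6 tumors and over the 4 trunk tumors, in 20 groups of values. In 3 of them the gap to the nearest tumor, divided by the whole range, was beyond Dixon's 95% critical value, where chance alone gives about 1. All 3 concerned Osx-Cre;NT3 tumor 25 among all 6 tumors. Dcn was at 6.18 there and at 8.51 in the next tumor (gap over range 0.642). Lum was at 5.01, with the next at 7.62 (0.659). Thy1 was at 5.99, with the next at 7.03, a gap only just past the critical value. The groups of values are not independent, since the same tumors enter each.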

How the results depend on the processing

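The calls depended on the tool. edgeR called 0 of the 10 genes and 0 of all genes in both comparisons, also with library sizes alone, upper-quartile scaling, either filter, the other factor as covariate, halved counts (an alternative added after seeing the data) or the subsets of tumors. Leaving out each tumor with edgeR gave 0 of the 10 genes throughout, and 0 to 567 of all genes between the sites (567 without tumor 27, 2 without tumor 25). DESeq2 called 1 of the 10 and 420 of all genes between the lines, and 3 of the 10 and 605 of all genes between the sites. In DESeq2 fits without each tumor in turn, added after seeing the data, 0 to 5 of the 10 and 196 to 3650 of all genes were called between the lines, and 0 to 3 of the 10 and 14 to 1492 of all genes between the sites. The 5 (Pdgfra, Pdgfrb, Dcn, Fn1 and Thy1) and the 3650 came without tumor 25, and the lowest counts of all genes without tumor 36. The causes were not tested. Library sizes alone moved the median log2 fold change of all genes between the lines from 0.0146 to 0.126, and that of the 10 genes from 1.02 to 1.13.

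Directions held for the other genes but turned for Fap, Postn, Dcn and Lum in these fits. Between the lines, without tumor 18, Fap was 0.22 and Postn 0.24 with edgeR (down to -0.65 and -0.84 without tumor 36, and to -0.67 and -0.86 with DESeq2), and 0.22 and 0.23 with DESeq2. Between the sites, Dcn and Lum were -0.22 and -0.50 with the line as covariate, and -0.23 and -0.51 in FSP1-Cre;NT3 tumors alone. Postn between the sites was -0.19, -0.17 and -0.51 with edgeR without tumors 25, 29 and 36, and -0.16, -0.13 and -0.54 with DESeq2. Fap between the sites was -0.038 and -0.22 with edgeR without tumors 29 and 36, and -0.0075 and -0.25 with DESeq2. The highest edgeR values with a tumor left out were 0.60 for Postn and 0.62 for Fap, without tumor 18, and with the line as covariate they were 0.87 and 0.95. The 5 genes whose lines did not overlap were 5 to 7 when a tumor was left out, and 5 with library sizes alone and with RPKM. Smaller groups separate more readily, and the share of all genes in these settings was not counted, so the rise is a description. Of the 10 genes nearest in pattern, 3 stayed without tumor 36. No paired analysis was possible because the lines share no replicate numbers. Each line had 3 tumors, FSP1-Cre;NT3 only 1 from the trunk, and the common biological coefficient of variation between tumors was 0.478.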
